A study of Homo sapiens with 6 samples.

Results

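Broad TRIM24 sites are stretches of the genome where TRIM24 covered an unusually wide interval in castration-resistant prostate cancer cells and was also detected in the androgen-dependent parent line with and without androgen. They were chosen by their measured width in LNCaP-abl, at least 1500 bp, and by overlap: each of these LNCaP-abl TRIM24 peaks overlapped, by 1 bp or more, a peak of the LNCaP vehicle list and a peak of the LNCaP DHT list. This rule took 699 of the 20621 LNCaP-abl peaks, or 3.39% (95% exact interval 3.15 to 3.65). Width in LNCaP-abl and presence in the LNCaP lists were measured in these data, so both describe how the sites were selected and are not findings.

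Chromatin bound by TRIM24 was recovered with an antibody against it and sequenced (ChIP-seq), in 1 library for each of 3 conditions. LNCaP is an established androgen-dependent prostate cancer line. Its cells were kept for 72 h in medium with charcoal-stripped serum, which is poor in hormone, and then received either ethanol vehicle or 10 nM of the androgen dihydrotestosterone (DHT) for 4 h. LNCaP-abl, a castration-resistant line derived from LNCaP, was always grown in the stripped serum and received ethanol vehicle for 4 h, so the stripped serum is common to all 3 conditions. The labels name no genetic change and no separate cultures. Each peak list therefore stands for a single library, and differences between the lists are described without a test because no replicate shows their spread.

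TRIM24 belongs to the tripartite motif family of ubiquitin ligases and reads chromatin through a PHD finger joined to a bromodomain, which together recognise histone H3 tails that lack methylation at one lysine and carry acetylation at another. It binds nuclear receptors in the presence of their ligands and acts as a coregulator of them, the androgen receptor among them. A peak caller may return a stretch of bound chromatin as 1 wide peak or as several short ones.

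A peak is an interval that the authors' caller returned, and its score, taken from the authors' lists, is a −log10 transformed significance, either of p or of q. The score rises with read depth, which the lists do not give, so scores were ranked within a list, and a higher score in one list than in another shows no change. Positions are in hg19 and count from 1. The strongest peak of a list at a site is the one with the highest score. Shares carry exact Clopper-Pearson 95% intervals and medians carry order-statistic 95% intervals. Both cover counting error only and treat sites as independent.

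The values that the rule used are given here as a description. Of the 987 LNCaP-abl peaks of 1500 bp or more, 699 (70.8%, 67.9 to 73.6) overlapped a peak of both LNCaP lists, against 21.2% of all LNCaP-abl peaks. The share rose with every step in width. It was 2.40% (2.01 to 2.86) for peaks under 300 bp, 24.97% (23.9 to 26.0) from 500 bp to under 1000 bp and 51.01% (49.2 to 52.8) from 1000 bp to under 1500 bp. It reached 66.0% (62.5 to 69.4) from 1500 bp to under 2000 bp and 85.8% (80.7 to 89.9) at 2000 bp or more. Wide peaks also offer more bases to overlap and scored higher, and the part of either in this rise was not tested.

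**Figure D1:**
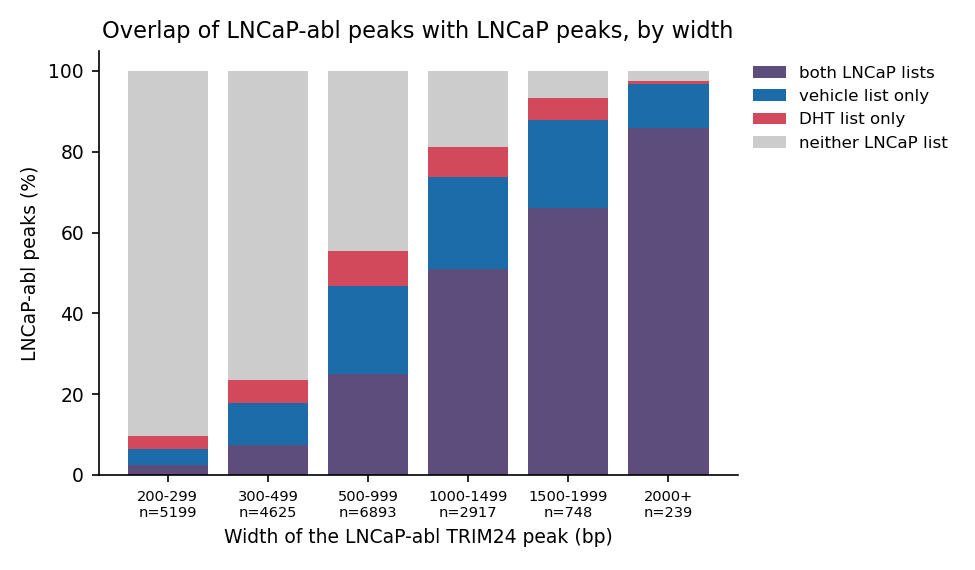
Bars show the percentage of LNCaP-abl TRIM24 peaks in each width class (bp, horizontal axis) that overlapped peaks of both LNCaP lists, of the vehicle list only, of the DHT list only or of neither, with the number of peaks under each bar. The part found in both lists grows from 2.40% in the narrowest class to 85.8% in the widest.

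The other 288 broad LNCaP-abl peaks fell short of the rule in LNCaP. Of these, 189 overlapped a vehicle peak only, 42 a DHT peak only and 57 neither. Their median LNCaP-abl scores were 83.5, 84.0 and 63.5, against 118.7 for the 699 sites. The widest LNCaP-abl peak without a peak in either LNCaP list was chr17:2302740-2305607, with a width of 2868 bp and a score of 112.6. Peaks with no LNCaP counterpart thus made up 5.78% (4.40 to 7.42) of the broad LNCaP-abl peaks. They made up 18.8% (17.4 to 20.2) of LNCaP-abl peaks from 1000 bp to under 1500 bp and 90.5% (89.6 to 91.2) of those under 300 bp. These shares too describe the values that the rule used.

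The sites had a median width of 1790 bp (1761 to 1811) and ran from 1500 to 4087 bp. Most were near the minimum: 494 were under 2000 bp, 144 were from 2000 to under 2500 bp, 42 from 2500 to under 3000 bp and 19 at 3000 bp or more. The narrowest site, chr21:33783815-33785314, had a width of 1500 bp, with scores of 57.0 in LNCaP-abl and, in LNCaP, of 4.69 with vehicle and 5.26 with DHT. Next came chr10:79685583-79687083 and chr10:80829727-80831227, both 1501 bp wide, with LNCaP-abl scores of 76.4 and 43.2. The shared peaks just below the minimum were chr6:170101610-170103108 (1499 bp), chr5:102594122-102595619 (1498 bp) and chr11:65189533-65191029 (1497 bp), with LNCaP-abl scores of 56.5, 74.6 and 82.7. The values on the 2 sides of the minimum overlapped.

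In LNCaP-abl the sites scored from 10.8 to 622, with a median of 118.7 (112.0 to 124.2), and 697 of the 699 stood in the upper 50% of their list. So did 98.7% (97.9 to 99.2) of shared peaks from 1000 bp to under 1500 bp and 88.1% (87.0 to 89.2) of all narrower shared peaks. Among the sites, width and score were almost unrelated (Spearman's rho 0.04 over 699 sites of 1 library). Over the 3674 narrower peaks found in all 3 lists rho was 0.37. The narrower peaks span 200 bp to under 1500 bp, whereas 494 of the 699 sites lie between 1500 and 2000 bp, and such a limited range of widths lowers a correlation by itself. The 10 widest sites had LNCaP-abl scores between 81.3 and 273, and the 10 highest-scoring sites had widths between 1522 and 2569 bp. The 2 sets had no member in common. Sets of 10 out of 699 sites would rarely share a member if width and score were unrelated, so this adds nothing to the rho.

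In LNCaP the strongest peak at these sites mostly stood above the middle of its list. The strongest vehicle peak at a site had a score from 2.91 to 126.2 with a median of 9.49 (8.96 to 9.84), against a median of 6.46 over all vehicle peaks. Its median rank was at 74.7% of the vehicle list. The strongest DHT peak had a score from 2.64 to 83.3 with a median of 8.11 (7.47 to 8.35), against 6.82 over all DHT peaks, and its median rank was at 62.6% of the DHT list. The strongest peak was in the upper 50% of its list at 546 sites (78.1%, 74.9 to 81.1) under vehicle and at 431 (61.7%, 57.9 to 65.3) under DHT. Narrower shared peaks also mostly stood there, with 69.5% (68.0 to 71.0) and 60.1% (58.5 to 61.7). Those from 1000 bp to under 1500 bp had 69.8% (67.4 to 72.2) and 54.4% (51.9 to 57.0). The DHT intervals of broad and all narrower shared peaks overlapped. There were 132 sites (18.9%, 16.0 to 22.0) with a vehicle peak from the highest-scoring 10% of that list, and 66 (9.44%, 7.38 to 11.9) with a DHT peak from the highest 10% of its list. For the narrower shared peaks these shares were 21.2% (19.9 to 22.6) and 16.1% (15.0 to 17.4). Shared peaks from 1000 bp to under 1500 bp had 16.1% and 9.34%, so the higher values came from peaks under 1000 bp, with 24.7% and 20.8%. These ranks describe lists in which every site had to have a peak. The strongest of several peaks also stands higher than a single peak by itself. There were 394 sites with 2 or more vehicle peaks and 291 with 2 or more DHT peaks. The part of this in the ranks was not tested.

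The order of the sites was partly kept between lists. Over the 699 sites the LNCaP-abl score went with the strongest vehicle score at a Spearman's rho of 0.53 and with the strongest DHT score at 0.48, and the 2 LNCaP scores went together at 0.57. In the narrower shared peaks the same 3 values were 0.38, 0.25 and 0.52. Site width went with neither LNCaP score (rho 0.04 and 0.03). The points of each of these values share their libraries.

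**Figure D2:**
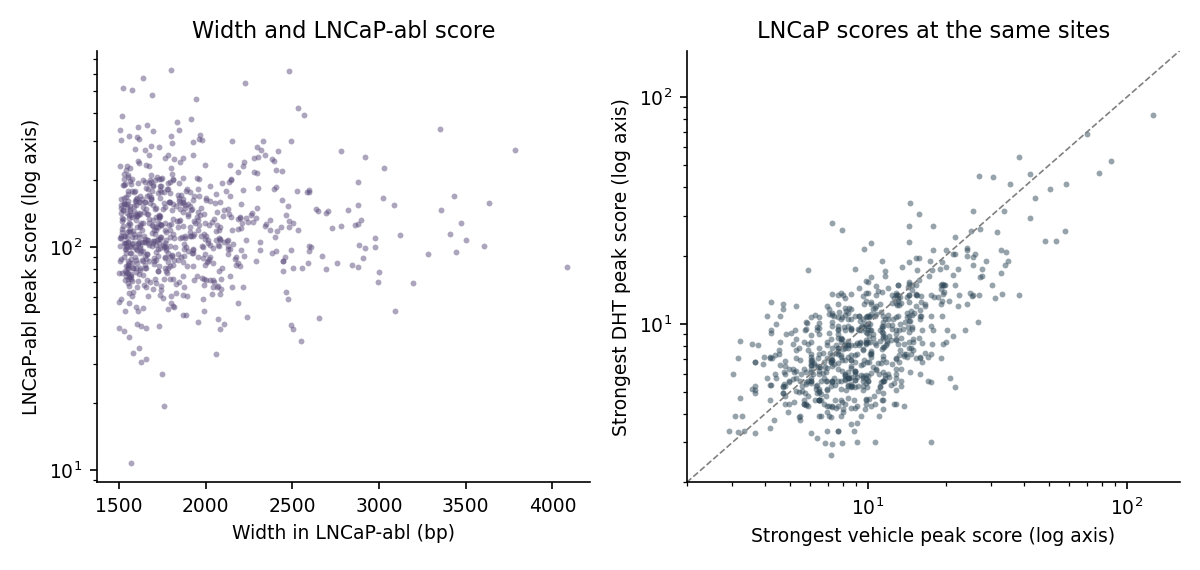
Each point is 1 of the 699 broad sites. The left panel plots width in LNCaP-abl (bp) against the LNCaP-abl peak score on a log axis (rho 0.04), and the right panel plots the strongest vehicle score against the strongest DHT score on log axes with a line of equal scores (rho 0.57).

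The strongest vehicle peak scored higher than the strongest DHT peak at 454 sites (64.9%, 61.3 to 68.5), against 58.9% of all LNCaP-abl peaks found in both lists. Among shared peaks from 1000 bp to under 1500 bp the share was 62.8% (60.3 to 65.2), with an overlapping interval. At the 211 sites with exactly 1 peak in each LNCaP list it was 62.6% (55.7 to 69.1). The count compares scores of 2 libraries of unknown depth and does not show a change with DHT.

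The highest-scoring broad sites in LNCaP-abl were also well placed in LNCaP. The first, chr8:145158354-145160153, scored 622 in LNCaP-abl and, in LNCaP, 35.5 with vehicle and 41.4 with DHT. The next, chr16:89786864-89789340, had 619, 42.2 and 45.7 in the same order. The site chr22:19418691-19420325 had 573, 57.5 and 25.6. Vehicle was below DHT at the first 2 of these sites and above it at chr22:19418691-19420325. The site chr13:113862421-113864647 had 547, 78.3 and 46.4, and chr19:56151356-56152877 had 521, 58.4 and 41.4. The site chr9:108006385-108007958 scored alike under both LNCaP treatments, with 70.3 for vehicle and 69.0 for DHT beside 507 in LNCaP-abl. The remaining 4 of the first 10 were chr20:361179-362868, chr16:1822397-1824341, chr21:38738066-38740599 and chr2:174828175-174830743, with LNCaP-abl scores from 482 down to 392. Over these 10 sites the strongest vehicle scores ran from 17.9 to 78.3 and the strongest DHT scores from 14.8 to 69.0. All 10 had overlapping strongest vehicle and DHT peaks.

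Ranked by the lowest of their 3 scores, the leading site was chr21:9825335-9827610, with 252 in LNCaP-abl and, in LNCaP, 126.2 with vehicle and 83.3 with DHT. It was covered almost from end to end in all 3 lists, and DHT peaks covered no other broad site as fully. A single vehicle peak of 2179 bp covered 95.7% of it and a single DHT peak of 2119 bp covered 93.1%. The input libraries were not analysed, so whether input shows a signal at this site as well is not known. The site chr19:56153827-56155487, with 355, 86.9 and 52.1, was also among the first 5 and lies within 1 kb of the chromosome 19 site named above. The other 3 of the first 5 were the chromosome 9, chromosome 13 and chromosome 16 sites with LNCaP-abl scores of 507, 547 and 619.

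At the other end, 5 broad sites had LNCaP-abl scores from 10.8 to 31.5. The lowest, chr3:71802535-71804101, was 1567 bp wide and scored 10.8 in LNCaP-abl and, in LNCaP, 8.63 with vehicle and 5.25 with DHT. The others were chr18:45934665-45936423, chr11:2906002-2907746, chr15:29862041-29863666 and chr21:28216519-28218171. Their strongest LNCaP peaks, from 3.56 to 8.63 under vehicle and 5.06 to 9.67 under DHT, lay on both sides of the list medians of 6.46 and 6.82. Of these 5 sites, 3 had overlapping strongest vehicle and DHT peaks.

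A TRIM24 interval that was 1 broad peak in LNCaP-abl held from 1 to 5 short peaks in each LNCaP list, and 1 was the most frequent number in both. Vehicle peaks numbered 1 at 305 sites, 2 at 280, 3 at 100, 4 at 13 and 5 at 1 site. Thus 394 sites (56.4%, 52.6 to 60.1) held 2 or more vehicle peaks, against 18.9% of all LNCaP-abl peaks found in both lists. DHT peaks numbered 1 at 408 sites, 2 at 249, 3 at 33, 4 at 8 and 5 at 1 site. Here 291 sites (41.6%, 37.9 to 45.4) held 2 or more DHT peaks, against 13.3% of all LNCaP-abl peaks found in both lists. Both LNCaP lists were split in this way at 197 sites (28.2%, 24.9 to 31.7). The vehicle list was the longer one. It was then shortened to the length of the DHT list. Of the sites then selected, 41.5% (37.6 to 45.4) held 2 or more vehicle peaks and 43.2% (39.3 to 47.1) held 2 or more DHT peaks. These intervals overlapped, so the larger vehicle share was no longer seen. When LNCaP peaks less than 200 bp apart were joined, 37.6% of the sites held several vehicle peaks and 28.3% several DHT peaks. With the better-scoring 50% of each LNCaP list, 30.5% of the 390 sites then selected held several vehicle peaks. Whether most sites held several vehicle peaks thus depended on these choices.

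A wider interval has room for more peaks, and per length the broad sites held fewer. They carried 0.914 vehicle peaks and 0.779 DHT peaks per kb of LNCaP-abl peak. Shared peaks from 1000 bp to under 1500 bp carried 1.02 and 0.9496 per kb, and those under 1000 bp carried 1.53 and 1.52. Every peak in these classes had to hold at least 1 peak of each list, which by itself lifts the value per kb of the narrow ones. Within the broad sites, width went with the number of vehicle peaks at a rho of 0.31 and with the number of DHT peaks at 0.24. The split was not limited to weak or strong sites. With the sites split into 4 near-equal groups by LNCaP-abl score, from lowest to highest, 52.6%, 58.6%, 60.9% and 53.4% of the sites held 2 or more vehicle peaks, with intervals that overlapped throughout.

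LNCaP peaks filled only part of each site. Vehicle peaks together covered a median of 40.1% (37.6 to 41.6) of the LNCaP-abl width, with a range from 6.46% to 98.0%. DHT peaks covered a median of 28.4% (26.9 to 30.3), from 1.96% to 93.1%. In the narrower shared peaks the medians were 50.8% and 43.4%. In shared peaks from 1000 bp to under 1500 bp they were closer, at 42.8% (41.3 to 44.2) and 32.4% (30.9 to 33.7). The vehicle intervals of this class and of the broad sites overlapped. Median widths were 471 bp (446 to 502) for the strongest vehicle peak and 372 bp (350 to 398) for the strongest DHT peak. These were wider than the medians of 380 bp and 338 bp at narrower shared peaks and of 297 bp and 296 bp over the whole lists. The whole-list values count every peak, not the strongest of a site. Shared peaks from 1000 bp to under 1500 bp had 411 bp (398 to 425) and 343 bp (327 to 356). The strongest LNCaP peaks were thus somewhat wider at broad sites, although the DHT intervals of these last 2 classes overlapped. Few LNCaP peaks came near the LNCaP-abl width: 68 sites (9.73%, 7.63 to 12.2) held a LNCaP peak of 1000 bp or more.

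Across the width of a site, LNCaP peaks covered the middle more often than the ends, and both less often than in narrower peaks. The midpoint of the LNCaP-abl peak lay under a vehicle peak at 394 sites (56.4%, 52.6 to 60.1) and under a DHT peak at 299 (42.8%, 39.1 to 46.5). At 225 sites (32.2%, 28.7 to 35.8) it lay under neither. In the narrower shared peaks the midpoint was under a vehicle peak at 75.1%, under a DHT peak at 69.8% and under neither at 14.0% (12.9 to 15.2). The midpoint of the strongest vehicle peak lay in the central 50% of the width at 70.5% of broad sites and 83.0% of narrower shared peaks. Shared peaks from 1000 bp to under 1500 bp were closer. Their midpoint was under a vehicle peak at 62.9% (60.4 to 65.4) and under a DHT peak at 54.4% (51.8 to 56.9). Their strongest vehicle peak lay in the central 50% at 79.5%. The strongest vehicle peak thus lay less often near the middle of broad sites. With 2 or more vehicle peaks, the midpoint was under one at 56.3% (51.3 to 61.3) of broad and 54.4% of narrower sites. With 1 vehicle peak it was 56.4% and 77.9%, so the vehicle contrast was seen only there. The share of broad sites under a vehicle peak was between 53.9% and 55.9% in the central bins of the profile across the site, from 42.5% to 62.5% of the width, and fell to 6.7% and 7.0% in the outermost bins.

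**Figure D3:**
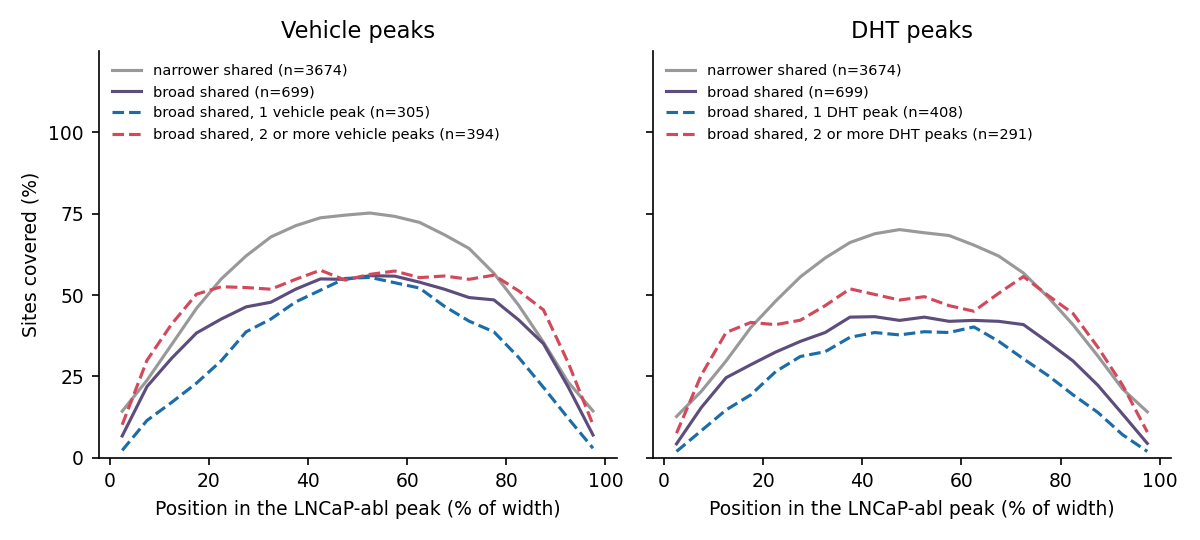
The percentage of sites covered by a vehicle peak (left) or a DHT peak (right) is plotted against position across the LNCaP-abl peak, in % of its width, for the 699 broad sites, for those with 1 and with 2 or more LNCaP peaks of that list, and for 3674 narrower peaks found in all 3 lists. Broad sites form a lower and flatter curve than narrower ones, with 56.4% against 75.1% of midpoints under a vehicle peak.

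Where a site held 2 or more vehicle peaks, the 2 strongest lay on opposite sides of the LNCaP-abl midpoint at 319 of 394 sites (81.0%, 76.7 to 84.7). Separate peaks within 1 interval tend to fall this way by geometry, so the share is a description only. Their midpoints were a median of 713 bp apart (684.5 to 741.5), with a gap of 278 bp (242 to 309) between the peaks. Their median scores were 9.68 for the stronger and 5.80 for the weaker. The DHT peaks were spaced in almost the same way. The 2 strongest lay on opposite sides at 218 of 291 sites (74.9%, 69.5 to 79.8), with midpoints a median of 712.5 bp apart (668.5 to 753.5), a gap of 272 bp (246 to 312) and median scores of 8.54 and 5.38. The caller joins nearby signal and the gap depends on that setting, which is not given in the sources used here.

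Vehicle and DHT peaks met at almost every broad site, but not always at their strongest points. Some vehicle peak overlapped some DHT peak at 641 sites (91.7%, 89.4 to 93.6). The strongest vehicle peak overlapped the strongest DHT peak at 499 sites (71.4%, 67.9 to 74.7), against 87.6% of all LNCaP-abl peaks found in both lists. In shared peaks from 1000 bp to under 1500 bp the share was 84.0% (82.0 to 85.8). The midpoints of the 2 strongest peaks lay a median of 192.5 bp apart (173 to 215) at broad sites and 78.5 bp (74 to 82.5) at narrower shared peaks. Shared peaks from 1000 bp to under 1500 bp had 124.25 bp (112.5 to 133.5). With the closest vehicle and DHT peaks in place of the strongest ones, the distance at broad sites was 103.5 bp (94.5 to 112.5). By that measure shared peaks from 1000 bp to under 1500 bp had 99.5 bp (92.5 to 105.5), with an overlapping interval. A wider site allows larger distances, and the part of width in the differences between strongest peaks was not tested.

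High-scoring broad sites had their strongest LNCaP peaks in the same place more often. Among the 175 sites with the lowest LNCaP-abl scores the strongest vehicle and DHT peaks overlapped at 61.7% of sites (54.1 to 68.9), and among the 174 next at 61.5% (53.8 to 68.8). In the group above them the share was 71.3% (63.9 to 77.9), and among the 176 sites with the highest scores it was 90.9% (85.7 to 94.7). The median distance in the highest group was 119.5 bp, against 217 bp in the lowest. Shared peaks from 1000 bp to under 1500 bp went from 74.5% (70.6 to 78.1) to 95.7% (92.7 to 97.7) between the same score limits.

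Single LNCaP peaks within broad sites were found under the other treatment less often than those in narrower shared peaks and more often than LNCaP peaks in general. Of the 1222 vehicle peaks at broad sites, 855 (70.0%, 67.3 to 72.5) overlapped a DHT peak, against 88.3% (87.3 to 89.3) of the vehicle peaks at narrower shared sites and 48.6% of all vehicle peaks. Of the 1042 DHT peaks at broad sites, 863 (82.8%, 80.4 to 85.1) overlapped a vehicle peak, against 91.7% (90.8 to 92.6) and 66.7% in the same order. Shared peaks from 1000 bp to under 1500 bp were closer, with 80.6% (78.7 to 82.3) of vehicle peaks and 86.7% (85.0 to 88.3) of DHT peaks. The DHT intervals of this class and of the broad sites just overlapped. Secondary peaks were found under the other treatment less often than the strongest ones. At the 394 sites with 2 or more vehicle peaks, the strongest was found under DHT in 77.4% (73.0 to 81.4) and the second strongest in 56.3% (51.3 to 61.3). At the 291 sites with 2 or more DHT peaks, the strongest was found under vehicle in 85.2% (80.6 to 89.1) and the second strongest in 74.2% (68.8 to 79.2). Narrower shared peaks mostly hold 1 peak per list, and every shared site had to hold a peak of each list, unlike LNCaP peaks in general.

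The sites with the most LNCaP peaks show how differently the short intervals can be laid out. The site chr6:157098054-157101074, 3021 bp wide with a LNCaP-abl score of 165.8, held 5 vehicle and 4 DHT peaks. Its vehicle peaks scored 15.8, 9.53, 8.22, 8.94 and 4.08 from left to right, and its DHT peaks 8.64, 5.60, 8.35 and 5.32. The leftmost peak scored highest in both treatments. A DHT peak of 329 bp just right of the midpoint overlapped no vehicle peak. The site chr4:15003241-15006872, 3632 bp wide with a LNCaP-abl score of 158.6, held 4 vehicle and 5 DHT peaks. Its strongest vehicle peak (score 13.1) lay 988.5 bp right of the midpoint and its strongest DHT peak (12.6) 211 bp right of it. These 2 peaks lay apart, and the strongest DHT peak overlapped a weaker vehicle peak (8.64) instead. The site chr2:25563135-25565996 had 4 peaks of each treatment, and the strongest lay on opposite sides of the midpoint: the vehicle peak of 12.96 on the left and the DHT peak of 13.4 on the right.

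The remaining 2 of these 5 sites differed in whether the treatments matched. The site chr20:305805-308197 held vehicle peaks of 10.8, 7.73 and 19.1 and DHT peaks of 5.34, 6.31, 6.199 and 14.2, and the rightmost peak was the strongest in both. The site chr5:67510609-67512461 held 4 vehicle peaks from 4.18 to 6.95 and 3 DHT peaks from 2.54 to 5.18. Its strongest vehicle peak lay right of the midpoint and its strongest DHT peak left of it, and all 3 DHT peaks were under the DHT list's median of 6.82. In all, the strongest vehicle and DHT peaks overlapped at 2 of these 5 sites.

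**Figure D4:**
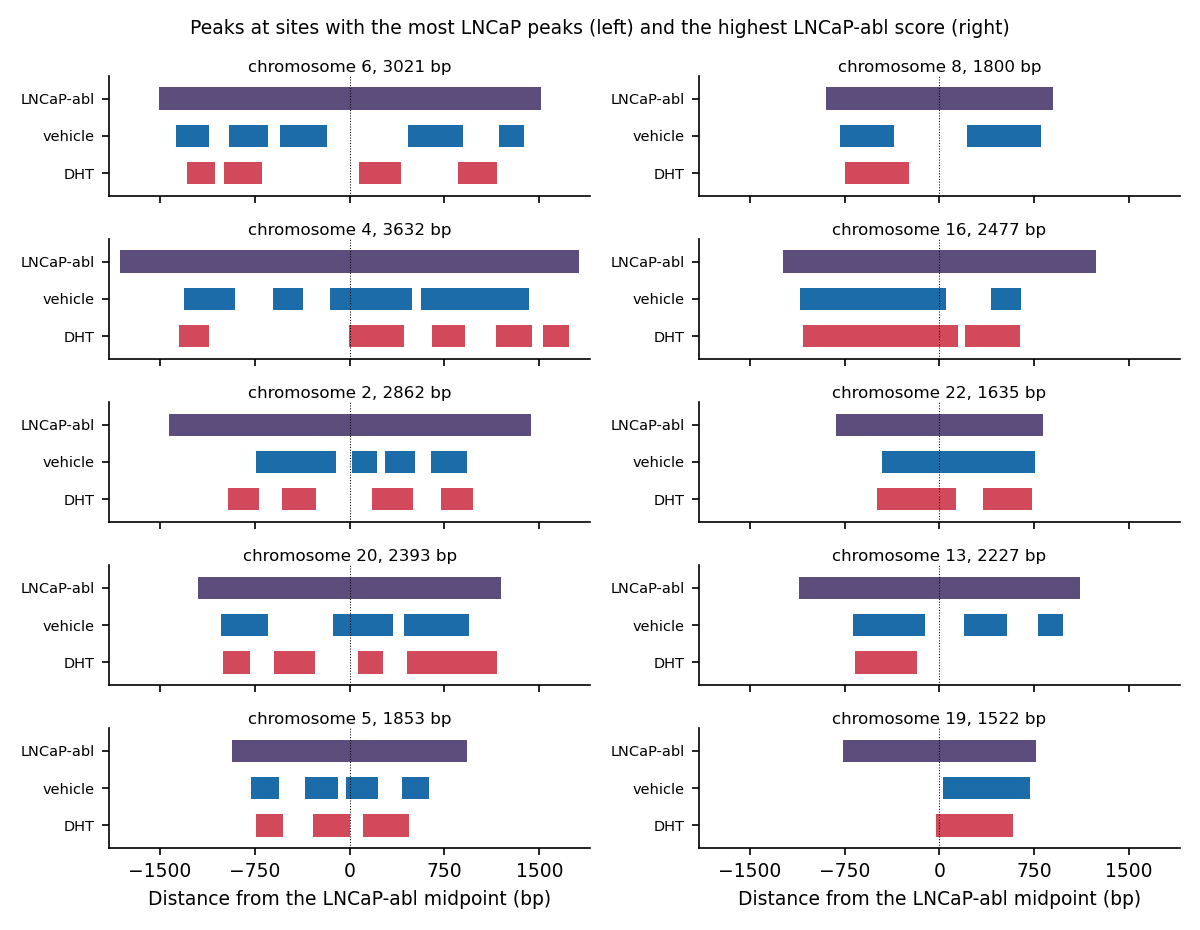
Peak intervals are drawn to scale as distance in bp from the midpoint of the LNCaP-abl peak (dotted line), in rows for LNCaP-abl, LNCaP vehicle and LNCaP DHT, for the 5 broad sites with the most LNCaP peaks (left) and the 5 with the highest LNCaP-abl score (right). The sites on the left hold between 3 and 5 short peaks per LNCaP list, while those on the right hold between 1 and 3, and their strongest vehicle and DHT peaks overlap.

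The 10 widest sites ranged widely in their LNCaP scores. The widest, chr20:57463724-57467810, spanned 4087 bp with a LNCaP-abl score of 81.3, vehicle peaks of 4.39 and 5.86 and DHT peaks of 4.07, 5.59, 3.69 and 5.30. LNCaP peaks covered 15.0% of it under vehicle and 22.1% under DHT. The site chr19:4064015-4067796 spanned 3782 bp with a score of 273, and 1 vehicle peak of 19.1 lay in it. That vehicle peak covered 10.9% of the site. The sites chr16:88518978-88522585, chr10:126847250-126850752 and chr15:66993115-66996584 followed the chromosome 4 site described above, with widths of 3608, 3503 and 3470 bp. The last 4 of the 10 widest were chr9:139741233-139744673, chr15:99190422-99193851, chr5:60626471-60629879 and chr2:111877711-111881066. Over the 10 widest sites the strongest vehicle score had a median of 8.76 and the strongest DHT score 6.96. Over all 699 sites these medians were higher, at 9.49 (8.96 to 9.84) and 8.11 (7.47 to 8.35). The 205 sites of 2000 bp or more had 9.83 (8.41 to 10.3) and 8.11 (7.11 to 8.50), so the lower medians were not seen in wide sites in general.

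Wide peaks in LNCaP itself were few, and a large part of them lay at these sites. The vehicle list held 107 peaks of 1000 bp or more, of which 54 overlapped a broad site, and the DHT list held 66, of which 30 did. Of all 9744 vehicle peaks 1222 lay at broad sites, and of all 7105 DHT peaks 1042 did. Nearly all the wide ones, 103 of the 107 and 61 of the 66, overlapped some LNCaP-abl peak, broad or not. A wide peak also overlaps others more easily, and the part of this was not tested. Of 9 vehicle peaks of 1500 bp or more, 6 lay at broad sites. They included chr1:1290538-1292361, 1824 bp wide and scored 50.6, and the chromosome 21 peak of 2179 bp. Of 6 DHT peaks of that width, the chromosome 21 peak of 2119 bp was the single one at a broad site. The other 5 DHT peaks all overlapped LNCaP-abl peaks under 1500 bp.

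Broad sites made up unequal shares of the TRIM24 peaks of different chromosomes. Relative to the peaks found in all 3 lists they formed 16.0% (14.9 to 17.1) over the genome. The share was 10.3% (7.84 to 13.3) on chromosome 1, with 53 sites, and 11.4% (7.73 to 16.1) on chromosome 19, with 28 sites. It was 23.4% (17.4 to 30.4) on chromosome 4, with 41 sites, and 28.3% (17.5 to 41.4) on chromosome 21, with 17 sites. Chromosomes 1, 4 and 21 had intervals clear of the genome-wide value, without adjustment for the 23 chromosomes compared. Chromosome X held 7 sites and chromosome Y held 0. Across the 23 chromosomes other than Y, the share went down as LNCaP-abl peaks per Mb went up (rho −0.60), with peaks per Mb from 2.81 on chromosome 13 to 27.8 on chromosome 19, each length taken as the end of the rightmost peak seen on it. The chromosomes share their libraries.

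**Figure D5:**
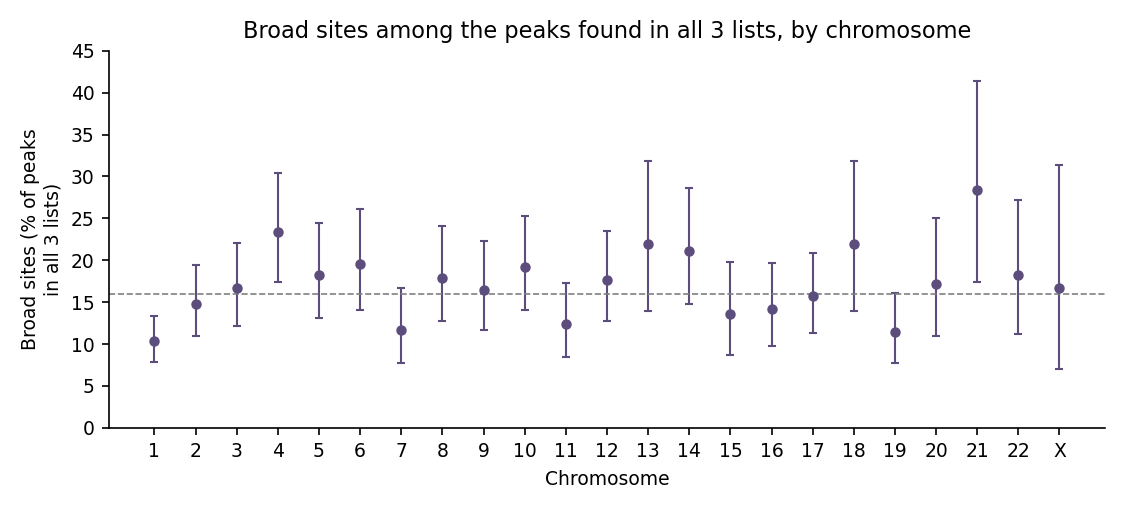
Points give broad sites as a percentage of the LNCaP-abl peaks found in all 3 lists on each chromosome, bars give exact 95% intervals and the dashed line marks the genome-wide 16.0%. Chromosome 1 lies below the line and chromosomes 4 and 21 above it with their whole interval.

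At a smaller scale the share did not fall steadily as peaks became denser. Broad sites had a median of 12 other LNCaP-abl peaks within 500 kb of their midpoint (10 to 13), narrower shared peaks had 12 (11 to 12) and all LNCaP-abl peaks had 13. Broad sites made up 16.7% (14.8 to 18.8) of shared peaks where at most 7 other LNCaP-abl peaks lay within 500 kb and 17.8% (15.3 to 20.5) where at least 28 did. Between these limits the shares were 14.9% (12.7 to 17.2) with 8 to 13 such peaks and 14.6% (12.6 to 16.9) with 14 to 27. Another LNCaP-abl peak lay within 1 kb of 135 sites (19.3%, 16.4 to 22.4), against 24.2% of all LNCaP-abl peaks and 14.8% (13.0 to 16.7) of shared peaks from 1000 bp to under 1500 bp. Within 5 kb the shares were 30.2% (26.8 to 33.7), 35.7% and 23.3% (21.2 to 25.6). Broad sites thus lay between these 2 classes.

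Another broad site lay within 100 kb of 110 sites (15.7%, 13.1 to 18.7), and 589 had none. The same share was 19.7% (17.7 to 21.8) among the 1488 shared peaks from 1000 bp to under 1500 bp and 43.2% among all 3674 narrower shared peaks, and it grows with the number of sites in a class. The 110 formed 48 groups, 39 of them pairs. The largest group held 7 sites on chromosome 16 from 474755 to 778881, within 304 kb that held 39 LNCaP-abl peaks, 14 of them found in all 3 lists. LNCaP-abl scores in this group ran from 55.9 to 337, strongest vehicle scores from 3.76 to 21.7 and strongest DHT scores from 5.26 to 9.97. Its members were therefore not alike in strength. The site at chr16:770354-772199 led under LNCaP-abl and vehicle, with 337 and 21.7, and was the lowest of the 7 under DHT, with 5.26. A second group held 4 sites on chromosome 11 from 65547300 to 65687659, with LNCaP-abl scores from 107.4 to 285. Of 7 groups of 3 sites, the one with the highest LNCaP-abl score lay on chromosome 17 from 77770405 to 77814878. Its sites each held 2 vehicle and 2 DHT peaks and had LNCaP-abl scores of 276, 73.9 and 219.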

How the data were processed

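The authors deposited 1 TRIM24 peak list for each of 3 conditions. MACS2 2.0, Bowtie 0.12.7, FastQC 0.10.0 and build hg19 are named per the submitters' processing notes. What each did, the filters, the cutoff and any use of the 3 input libraries (not analysed here) are not stated there. The authors' deposited score is a −log10 significance, of p or of q, which the lists do not tell apart. It starts just above 2 in each list. The lists give no depth.

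Groups came from the labels. Overlaps were computed in Python 3.11.15 (numpy 2.4.6, pandas 2.3.3, scipy 1.17.1), checked against bedtools 2.31.1, which selected the same 699 sites, and tested on simulated lists. Figures used matplotlib 3.10.9. The sites, named-site rules and summaries were chosen with earlier results of these data known. Named sites were the 10 highest-scoring, the 10 widest, the 5 with the highest lowest score, the 5 lowest, the 5 with the most LNCaP peaks, 3 on each side of the width minimum and the 3 largest groups, ties by highest score. The other sites and peaks named were chosen after their values were seen. No test between conditions was made. Planned results on gene starts, CpG content, motifs and gene lists were left out, since no hg19 sequence or annotation was used here.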

Additional observations from a re-analysis of the deposited data

How the results depend on the processing

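The results below are the number of broad sites, the share of broad LNCaP-abl peaks in both LNCaP lists, the shares of sites with 2 or more vehicle or DHT peaks, the median strongest vehicle and DHT scores, the median distance between these peaks and the share of sites within 100 kb of another. No paired analysis was possible because the conditions have a single library each, so leaving one out was not possible either. In this order, a width minimum of 1000 bp gave 2187, 56.0%, 33.9%, 23.6%, 8.62, 7.39, 139.5 bp and 27.5%. A minimum of 2000 bp gave 205, 85.8%, 73.2% and 58.0%, then 260.5 bp and 7.32%. The better-scoring 50% of each LNCaP list gave 390, 39.5%, 30.5%, 16.9%, 11.97, 10.7, 141.75 bp and 10.3%, as follows in part from fewer peaks. With the vehicle list shortened to the DHT list's length, 64.7% of broad peaks were in both lists and 41.5% of sites held 2 or more vehicle peaks. Joining LNCaP peaks less than 200 bp apart gave 37.6% with 2 or more vehicle peaks and 28.3% with 2 or more DHT peaks. The closest vehicle and DHT peaks lay 103.5 bp apart. Neighbours within 50 kb and 200 kb gave 9.59% and 24.5%. Joining LNCaP-abl peaks less than 200 bp apart, chosen after seeing the data, gave 67.8% of broad peaks in both lists and 818 sites, 664 of them named as before. Requiring LNCaP midpoints inside the site, counting LNCaP peaks less than 1 kb away, or leaving out mitochondrial, Y and unplaced sequences left the 7 shares and medians within their intervals and the number of sites within 1.5 times. Apart from the effect of shorter lists, the cause was not tested. Peak widths, peak numbers and missing peaks depend on depth, which is unknown. The alternatives for gene starts, CpG content, motifs and gene lists were not run.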

Other observations

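The widest TRIM24 peaks of the LNCaP lists outside the broad sites lay over LNCaP-abl peaks under 1500 bp. The widest peak of both LNCaP lists lay on chromosome 18, from 18516987 to 18520477 under vehicle (3491 bp, score 69.98) and from 18516983 to 18520475 under DHT (3493 bp, score 76.1). In LNCaP-abl the same interval held 5 separate peaks, the widest of 928 bp and the highest with a score of 24.4. On chromosome 19, a vehicle peak from 27731838 to 27733545 (score 85.3) and a DHT peak from 27731844 to 27733576 (score 91.5) each lay over 3 LNCaP-abl peaks of at most 538 bp. Another DHT peak, from 27737316 to 27739654 on that chromosome (2339 bp, score 56.2), lay over 4 LNCaP-abl peaks of at most 381 bp. At these intervals the lists were the reverse of the broad sites, with 1 wide peak in LNCaP and several short ones in LNCaP-abl. The input libraries were not analysed, so these intervals were not checked for signal that input would also show.

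On chromosome 11, a DHT peak from 66188532 to 66190079 was 1548 bp wide with a score of 255, the highest of the DHT list, over a LNCaP-abl peak of 510 bp with a score of 168.9. On chromosome 1, a vehicle peak from 121483979 to 121485561 (1583 bp, score 192.7) lay over a LNCaP-abl peak of 1437 bp with a score of 128.6, just under the width minimum of the broad sites. These peaks were chosen after their values were seen, and they were not checked against input either.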
